A study of Mus musculus with 32 samples.

Results

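Fabp1, Fabp3, Fabp4, Fabp5 and Dbi, which encode carriers of fatty acids and their CoA esters, were followed in kidney cortex RNA of 32 mice. They were taken by symbol from a table of counts for 32544 genes, and all 5 were present. The mice were 25 weeks old and on the strain C57BL/6J-Col4a3tm1Dec, in 8 groups of 4. Male and female controls (Col4a3+/-) and Alport mice (Col4a3-/-) received vehicle or nicotinamide riboside (NR), a precursor of NAD+, which by the methods of the study was mixed into a purified diet that vehicle-treated mice received alone. The deletion was present in every cell from the germline, the controls carried 1 deleted allele as well, and kidney disease progresses slowly on this background. The comparisons asked how the Alport genotype changed these genes, how NR changed them in each genotype, and whether these effects differed by sex.

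Long-chain fatty acids dissolve poorly in water and move through the cytosol bound to small proteins. Fatty acid binding proteins (FABPs) hold them in a barrel-shaped pocket, and each is named for the organ where it is most abundant, although most are made in several cell types. Once a fatty acid has been joined to coenzyme A, acyl-CoA binding protein, the product of Dbi, carries it to mitochondria, peroxisomes and lipid synthesis. The proximal tubule, the main cell type of the cortex, lives largely on fatty acid oxidation. PPARα, the product of Ppara, is a nuclear receptor that is switched on by fatty acids and raises the transcription of genes for their uptake, binding and oxidation. Fabp1, the liver-type protein, is a classical PPARα target. Fabp3 is the heart-type protein, Fabp4 the adipocyte-type protein, which is also made by capillary endothelium and macrophages, and Fabp5 the epidermal-type protein.

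On the mm10 build with GENCODE vM21, each of the 5 genes has 4 exons in the coding transcript used for lengths. Fabp1 lies on chromosome 6 from 71199827 to 71205023 on the plus strand, with a transcript of 553 bases. Fabp3 lies on chromosome 4 from 130308595 to 130315463 on the plus strand, with 823 bases. Fabp5 (chromosome 3, 10012548 to 10016607, plus strand, 987 bases) and Fabp4 (chromosome 3, 10204088 to 10208576, minus strand, 896 bases) lie on the same chromosome. Dbi lies on chromosome 1 from 120113280 to 120121078 on the minus strand, with 569 bases.

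The sequence before the start of Fabp1 is shown because this member had the largest fold changes with NR. It comes from RefSeq (GRCm38.p6), 5′ to 3′ on the strand of the gene, and stops before the annotated transcript. It spans chr6:71199629-71199826, plus strand, and is 198 bases long. Capitals mark the match to the motif searched, AGGTCA followed by any 1 base and AGGTCA again, on either strand with up to 2 mismatches, which is the form that PPARα binds with its partner RXR.
Fabp1: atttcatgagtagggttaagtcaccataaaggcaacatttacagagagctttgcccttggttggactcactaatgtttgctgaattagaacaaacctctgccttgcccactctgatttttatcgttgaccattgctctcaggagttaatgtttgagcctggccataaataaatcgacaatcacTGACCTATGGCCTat

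The Fabp1 window held 1 match, TGACCTATGGCCT, on the reverse strand with 1 mismatch, 67 to 55 bases before the RefSeq start. The window of Fabp3 held none, and those of the other members are not reported here. Each window searched was the 250 bases before a RefSeq start. The sequence shown for Fabp1 is the part of its window that lies before the annotated transcript. Of 32851 such windows of the mouse genome, 3.24% had a match with up to 2 mismatches and 0.484% had one with at most 1. These matches describe letters in a window and were not tested as binding sites.

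Before the members were compared, the libraries were checked against their labels. Total counts were 16621944 to 27778797 per mouse. Levels are given as CPM, the counts of a gene scaled to a common library size, scaled with TMM factors of 0.828 to 1.25. Col4a3, the deleted gene, was at 49.0 to 83.7 CPM in the 16 Alport mice and at 139.7 to 200.1 CPM in vehicle-treated controls, but at only 59.0 to 93.7 CPM in replicates 1, 2 and 3 of the NR-treated male controls. Counts of Col4a3 per count of its partner chain Col4a4 were 0.293 to 0.413 for the Alport genotype and 0.537 to 0.822 for controls, a ratio chosen after the values were seen and so no independent check. The level of Col4a3 in replicates 1 and 3 of the libraries labelled male control NR, 59.0 and 74.9 CPM, thus lay within the Alport range. The markers of the proximal tubule Slc34a1 (at least 1078 CPM) and Lrp2 (at least 663 CPM) were high in all 32 libraries. A pair of libraries stood apart. In male Alport NR replicate 1, macrophage markers summed to 2661 CPM against 793 to 1018 CPM in the other 3 mice of that group, and tubule injury markers to 11712 CPM against 3610 to 5040 CPM. Female control NR replicate 3 had Ucp1, a gene of brown fat, at 3.28 CPM and Plin1, which coats fat droplets, at 2.84 CPM, while no other library passed 0.219 and 0.744 CPM.

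Levels between genes were compared per kilobase of transcript. Dbi was the most abundant member in every group, with group means of 281 to 785 CPM per kb. Fabp3 had the next highest mean in vehicle-treated mice, at 32.9 ± 12.1 (SD, n = 4) CPM per kb in female Alport mice to 60.9 ± 8.6 in male controls, and Fabp4 lay between 14.9 ± 4.77 and 37.5 ± 14.9 CPM per kb over the 8 groups. In vehicle-treated female Alport mice Fabp3 did not differ beyond its spread from Fabp4, at 25.8 ± 2.88 CPM per kb. Fabp5 was low throughout, at 3.60 ± 0.715 to 6.59 ± 0.375 CPM per kb. Fabp1 covered the widest range, from 0.455 ± 0.305 CPM per kb in vehicle-treated male controls, the lowest value of any member, to 75.2 ± 20.1 CPM per kb in NR-treated female Alport mice. In that group Fabp1 stood second to Dbi, whose group range did not overlap with it. Of the distinct stretches of 31 bases in their exons, 50.1% were shared with another gene for Fabp3, 9.27% for Fabp5, 2.30% for Dbi, 0.288% for Fabp4 and 0% for Fabp1. The stretches were pooled over all annotated transcripts, 793 for Fabp3 and 523 for Fabp1 but 3592 for Fabp5, 4508 for Fabp4 and 1432 for Dbi. These shares are therefore not comparable between the genes. For Fabp3 the sharing gene was mostly the processed pseudogene Fabp3-ps1, which had 0 to 13 counts, so reads of Fabp3 may have been lost or moved and its level is uncertain. Fabp3 also shares 6.43% of them with the neighboring Zcchc17, which had 369 to 649 counts, and it is not stated whether counting used the strand. For Fabp5 the sharing genes were mainly processed pseudogenes led by Gm6166, with 0 to 2 counts. Its 333 shared stretches are many beside a coding transcript of 987 bases, so the level of Fabp5 is uncertain too.

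**Figure D1:**
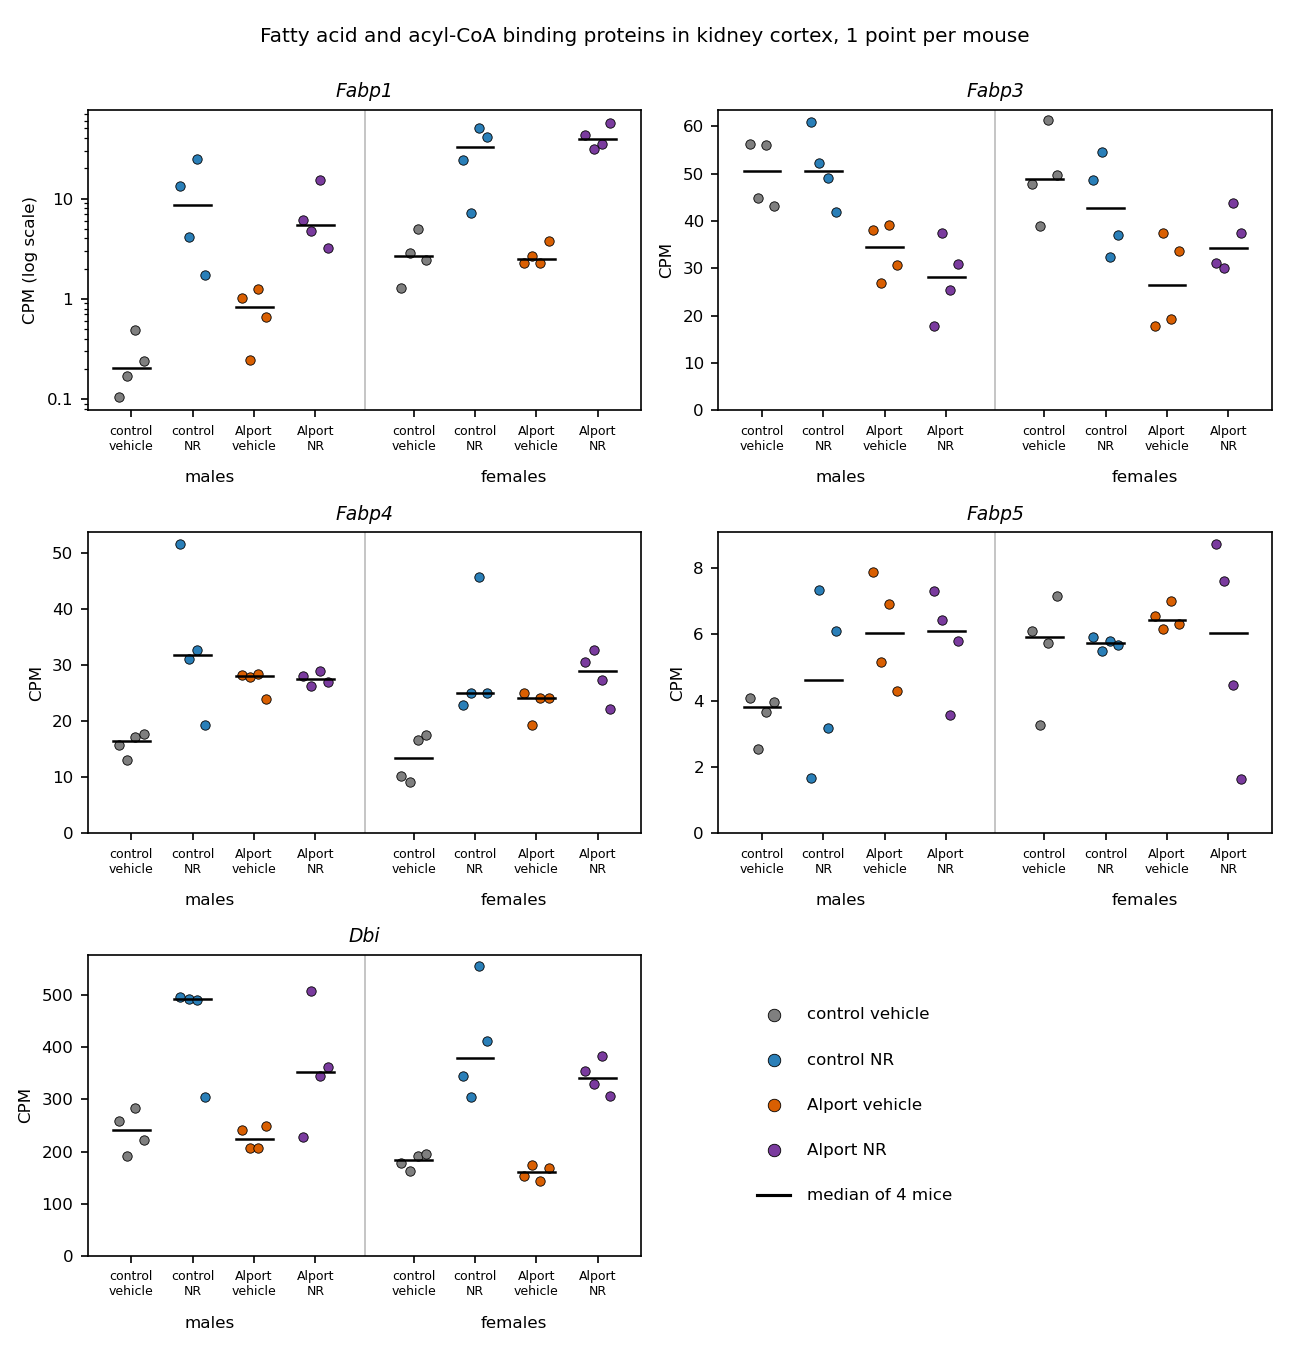
Level of each of the 5 genes in CPM (y axis, logarithmic for Fabp1 and linear from 0 for the others) in the 8 groups (x axis), with 1 point per mouse and a line at the median of 4. Fabp1 ran from 0.106 CPM in a vehicle-treated male control to 56.4 CPM in an NR-treated female Alport mouse, and every NR-treated group lay above its vehicle-treated group for Fabp1.

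Fabp1 rose with NR in both sexes of the controls and in female Alport mice, by more than 10-fold in each. In vehicle-treated male controls Fabp1 was at 0.106, 0.171, 0.492 and 0.238 CPM, which rest on 2, 4, 10 and 5 counts, and in NR-treated male controls at 13.2, 4.12, 24.7 and 1.74 CPM. All NR-treated mice lay above all vehicle-treated mice, and the NR-treated mice differed among themselves by more than 10-fold. NR replicates 1, 2 and 3, above replicate 4, were the libraries with Col4a3 below that of vehicle-treated controls, and a link was not tested. The log2 fold change was 5.43 ± 0.91 (SE, adjusted P = 0.0152), and the gene passed the filter on low counts only through the NR-treated group. The call was lost without vehicle replicate 1, 2 or 4, where the log2 fold change was 5.21 to 5.41 and the adjusted P 0.0548 to 0.0608, and with limma-voom it was 4.79 (adjusted P = 0.115). Without NR replicate 3 it was 4.64 (adjusted P = 0.0296). In females, the vehicle-treated controls had 1.29, 2.90, 4.95 and 2.41 CPM and the NR-treated controls 24.4, 7.19, 51.0 and 41.3 CPM. The groups again did not overlap, with NR replicate 2 the nearest to the vehicle-treated mice. The log2 fold change was 3.4 ± 0.52 (adjusted P = 0.00421), and it passed whichever mouse was left out.

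In vehicle-treated female Alport mice Fabp1 was at 2.28, 2.68, 2.27 and 3.79 CPM, and in NR-treated female Alport mice at 43.3, 31.3, 35.3 and 56.4 CPM. These were the tightest groups for this gene, and Fabp1 had the smallest P of all 15712 genes tested there, with a log2 fold change of 3.94 ± 0.24 (adjusted P = 0.000258). In males, vehicle-treated Alport mice had 1.01, 0.244, 1.26 and 0.657 CPM and NR-treated Alport mice 6.07, 4.75, 15.4 and 3.21 CPM. The groups did not overlap, but the difference did not pass the test (edgeR log2 fold change 3.19 ± 0.60, adjusted P = 0.394, rank 15 of 15500), in a comparison in which no gene passed. Here too the gene passed the filter on low counts only through the NR-treated group. The call depended on the setting. It was made by DESeq2 (3.21, adjusted P = 2.89e-05), by 1 fit of all 32 mice (3.21, adjusted P = 0.0245) and without male Alport NR replicate 1 (3.28, adjusted P = 0.0433), the library that stood apart. It was not made with limma-voom (3.19, adjusted P = 0.55), and without NR replicate 3 the log2 fold change was 2.53.

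Fabp1 was lower in vehicle-treated male than in female controls, with 2, 4, 10 and 5 counts in males and 30, 77, 126 and 53 in females. The ranges did not overlap, and the log2 fold change was -3.52 ± 0.51 (adjusted P = 0.000369), where the gene passed the filter only through the females. Between vehicle-treated Alport and control females no difference passed (-0.05 ± 0.36, 95% confidence interval -0.83 to 0.74, adjusted P = 0.929). In males this comparison was not tested for Fabp1, because too few mice had enough counts. Without the filter it gave 1.71 (adjusted P = 0.0313) and in the fit of 32 mice 1.64 (adjusted P = 0.194), from 79 counts in all in Alport and 21 in control mice, with overlapping ranges. The difference between the sexes in the genotype effect on vehicle was 1.80 ± 0.70 (95% interval 0.32 to 3.28). It did not pass (unadjusted P = 0.0201, adjusted P = 0.296) and rests on these few counts in males. No interaction passed for the effect of NR on Fabp1. The interaction with genotype was -2.26 ± 1.14 in males (95% interval -4.69 to 0.17, adjusted P = 0.587) and for females it was 0.51 ± 0.65 (-0.86 to 1.89, adjusted P = 0.833). The interaction with sex was 2.01 ± 1.30 in controls (-0.74 to 4.75, adjusted P = 0.481), while Alport mice gave -0.71 ± 0.65 (-2.10 to 0.68).

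With NR, Dbi rose in controls of both sexes and in female Alport mice, as Fabp1 did, by smaller folds. Vehicle-treated female controls had 177, 163, 191 and 195 CPM and NR-treated female controls 346, 305, 557 and 413 CPM. The lowest NR-treated mouse was well above the highest vehicle-treated mouse, and the log2 fold change was 1.16 ± 0.16 (adjusted P = 0.00245). In female Alport mice the levels were 153, 174, 143 and 169 CPM on vehicle and 354, 330.4, 384 and 307 CPM with NR. There was again a wide gap between the groups, and with a log2 fold change of 1.12 ± 0.11 (adjusted P = 0.00714) Dbi ranked 3 of 15712 genes. Both female results passed in every fit with 1 mouse left out.

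In male controls Dbi was at 258, 191, 284 and 222 CPM on vehicle and at 496, 494, 491 and 305 CPM with NR. The groups did not overlap, although NR replicate 4 was close to the vehicle-treated mice. The higher NR replicates 1, 2 and 3 were the libraries with Col4a3 below that of vehicle-treated controls, and a link was not tested. The log2 fold change was 0.92 ± 0.18 (adjusted P = 0.0256), and it passed in only 3 of 8 fits with 1 mouse left out (0.82 to 1.07, adjusted P = 0.00304 to 0.0826). Without NR replicate 1 or 3, or vehicle replicate 1, 2 or 4, the call was lost. Male Alport mice had 241, 206, 207 and 249 CPM on vehicle and 228, 508, 344 and 362 CPM with NR. Here replicate 1 of the NR-treated group, the library that stood apart, lay inside the vehicle-treated range, and the difference did not pass (0.67 ± 0.23, adjusted P = 0.886). Without that mouse it was 0.83 (adjusted P = 0.0463).

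No difference between genotypes passed for Dbi. Alport against control mice on vehicle gave 0.00 ± 0.12 in males (95% interval -0.27 to 0.27, adjusted P = 0.999) and -0.15 ± 0.09 in females (-0.35 to 0.05, adjusted P = 0.206). Male vehicle-treated controls were above females by 0.37 ± 0.11 (adjusted P = 0.0269), with overlapping ranges, and this call held in 4 of 8 fits with 1 mouse left out (0.28 to 0.47). It was lost without male replicate 1 or 3 and without female replicate 1 or 2. No interaction passed for Dbi. With genotype it was -0.27 ± 0.31 in males and -0.06 ± 0.20 in females, and with sex -0.42 ± 0.26 in Alport mice and -0.25 ± 0.26 in controls.

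**Figure D2:**
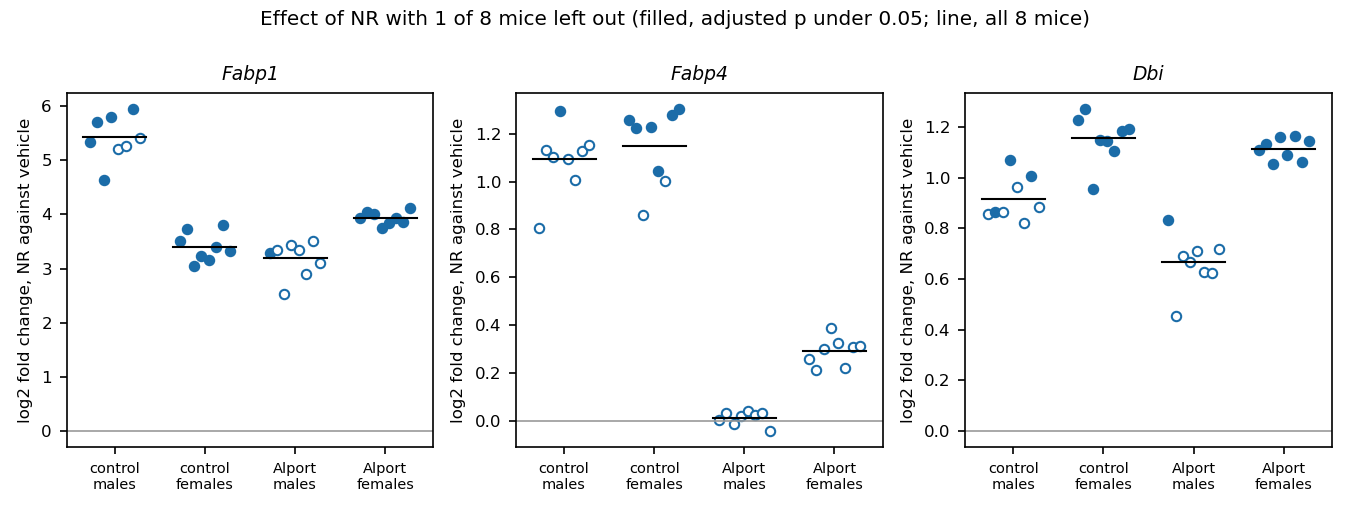
Log2 fold change of NR against vehicle (y axis) for Fabp1, Fabp4 and Dbi in the 4 combinations of genotype and sex (x axis), with 1 point for each of the 8 fits that leave out 1 mouse, filled where the adjusted P was under 0.05, and a line at the value of all 8 mice. In Alport females Fabp1 (3.75 to 4.12) and Dbi (1.05 to 1.17) were called in all 8 fits, while in Alport males each was called in 1.

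Fabp4 was higher in Alport than in control mice on vehicle in both sexes, and higher with NR in controls of both sexes. Vehicle-treated male controls had 15.7, 13.1, 17.1 and 17.7 CPM and vehicle-treated male Alport mice 28.1, 27.8, 28.3 and 24.0 CPM. All Alport mice lay above all controls, with a log2 fold change of 0.85 ± 0.11 (adjusted P = 5.27e-05). Vehicle-treated female controls had 10.1, 9.15, 16.6 and 17.4 CPM and vehicle-treated female Alport mice 24.9, 19.3, 24.1 and 24.1 CPM. The female groups did not overlap either (0.83 ± 0.20, adjusted P = 0.00661). Both calls held whichever mouse was left out, and the genotype effect did not differ between the sexes beyond its error (0.05 ± 0.24, 95% interval -0.46 to 0.56).

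With NR, Fabp4 was at 51.6, 31, 32.6 and 19.2 CPM in male controls and at 22.9, 25.0, 45.7 and 25.0 CPM in female controls. Every NR-treated control lay above every vehicle-treated control of its sex, and the log2 fold changes were 1.09 ± 0.26 for males (adjusted P = 0.0407) and 1.15 ± 0.25 for females (adjusted P = 0.0228). In males, NR replicates 1, 2 and 3, which stood above replicate 4, were the libraries with Col4a3 below that of vehicle-treated controls. A link between Col4a3 and Fabp4 in these mice was not tested. The male call held in 1 of 8 fits with 1 mouse left out, the one without NR replicate 4 (1.30, adjusted P = 0.00532). The other 7 gave 0.80 to 1.15 with an adjusted P up to 0.125, limma-voom gave 1.0 (adjusted P = 0.0756), and the replicate block 1.02 (adjusted P = 0.0770). The female call was lost without NR replicate 3 (0.86, adjusted P = 0.0503), the library with fat genes, and without vehicle replicate 2 (1.0, adjusted P = 0.0546). In Alport mice NR left Fabp4 at 28, 26.2, 28.9 and 27.0 CPM in males and at 30.5, 32.7, 27.3 and 22.1 CPM in females. These ranges overlapped with those on vehicle, and the log2 fold changes were 0.01 ± 0.10 (95% interval -0.21 to 0.23, adjusted P = 0.994) and 0.29 ± 0.13 (0.01 to 0.58, adjusted P = 0.288). The difference between genotypes in the effect of NR was -1.10 ± 0.30 in males (unadjusted P = 0.00184, adjusted P = 0.4) and -0.88 ± 0.32 in females (unadjusted P = 0.0138, adjusted P = 0.452), so it did not pass over all genes.

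Because Fabp4 is made by fat cells, endothelium and macrophages, the markers of these cells were summed. In bulk RNA, fewer cells of a type and less RNA per cell cannot be told apart. Of the 15 adipocyte markers, 6 to 8 could be tested in a comparison, and Adipoq, which encodes a hormone of fat cells, was at 0 in all vehicle-treated mice. It was at most 0.149 CPM in the NR-treated mice other than female control NR replicate 3, which had 0.568 CPM. Most of the list's sum came from Pck1, which the proximal tubule makes in quantity. Without it the other 14 summed to 63.6 to 77.0 CPM in male and 74.2 to 86.4 CPM in female controls on vehicle, and to 83.4 to 110.4 and 90.7 to 144 CPM with NR. In Alport mice, where Fabp4 was higher than in controls on vehicle, they summed to only 42.9 to 50.9 CPM in males and 46.1 to 60.9 CPM in females, and with NR, where no change of Fabp4 passed, to 54.2 to 98.1 and 89.1 to 139 CPM. Of the 14 endothelial markers, 13 rose in male and 8 in female Alport mice on vehicle (median log2 fold change 0.70 and 0.33), and all 14 macrophage markers rose in both sexes (median 3.49 and 2.73). Of all genes tested, 51.0% in males and 45.8% in females were called there in either direction. Called higher were 4093 of 15286 genes in males and 3768 of 15709 in females. The female endothelial count is near the share called in either direction but above the share called higher. With NR, 10 endothelial markers rose in male controls (median 0.59) and their sum went from 567 to 629.5 CPM on vehicle to 835 to 1103 CPM. In female controls 1 endothelial marker rose (median 0.13), and the sums of 648 to 860 CPM on vehicle and 815 to 886 CPM with NR overlapped. For NR in controls, 4.53% of all genes tested were called in males and 6.18% in females. Macrophage markers rose in male controls with NR in 5 of 14 cases (median 0.88) and in 0 of 14 in females (median -0.06). Tubule injury markers rose in male controls with NR in 5 of 10 cases (median 1.24) and in 0 of 10 in females (median 0.05). The part of fat cells, endothelium, macrophages or tubule injury in the level of Fabp4 was not tested.

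**Figure D3:**
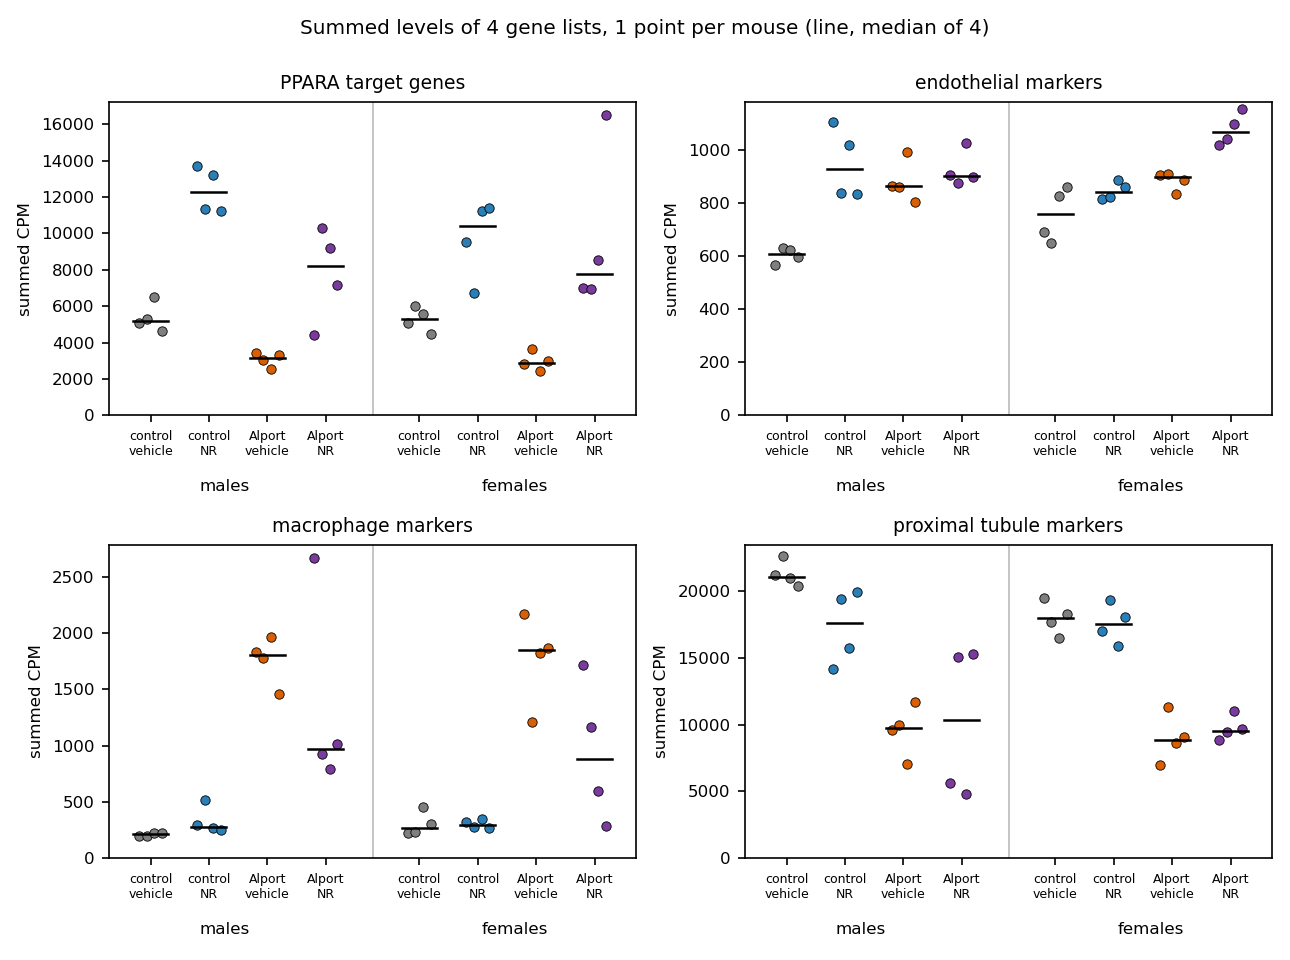
Summed CPM (y axis, from 0) of the 15 PPARA target genes and of 14 endothelial, 14 macrophage and 14 proximal tubule markers in the 8 groups (x axis), with 1 point per mouse and a line at the median of 4. The target genes summed to 11212 to 13728 CPM in NR-treated male controls against 4632 to 6482 CPM on vehicle, and male Alport NR replicate 1 had the highest macrophage sum of all mice, 2661 CPM.

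Fabp3 was lower in Alport than in control mice on vehicle. Male controls had 56.2, 44.8, 56.2 and 43.1 CPM and male Alport mice 38.2, 26.8, 39.1 and 30.7 CPM, without overlap, and the log2 fold change was -0.49 ± 0.13 (adjusted P = 0.00923). Female controls had 47.9, 39.1, 61.4 and 49.8 CPM and female Alport mice 17.9, 37.4, 19.3 and 33.7 CPM. The female groups did not overlap, but the Alport mice fell into a low and a higher pair, and the log2 fold change was -0.84 ± 0.24 (adjusted P = 0.0148). Markers of the proximal tubule fell in the same comparisons, with 14 of 14 lower in males (median -1.09) and 13 of 14 in females (median -0.92), where 1 was higher. Of all genes tested, 51.0% in males and 45.8% in females were called there. The part of the proximal tubule in the level of Fabp3 was not tested.

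No change of Fabp3 with NR passed the test. NR-treated controls had 61.0, 52.2, 49.1 and 41.9 CPM in males (0.04 ± 0.14, 95% interval -0.27 to 0.35) and 48.7, 54.6, 32.4 and 37.0 CPM in females (-0.20 ± 0.16, -0.55 to 0.14). NR-treated Alport mice had 17.8, 37.6, 25.3 and 30.9 CPM in males (-0.28 ± 0.23, -0.80 to 0.23) and 31.1, 30.0, 43.9 and 37.4 CPM in females (0.41 ± 0.25, -0.15 to 0.96). The ranges with and without NR overlapped in all 4 combinations. Compared with vehicle-treated controls, NR-treated male Alport mice were still lower (-0.79 ± 0.22, adjusted P = 0.0300), a call that held in 3 of 8 fits with 1 mouse left out, namely those without male Alport NR replicate 1, 2 or 4, while NR-treated females did not pass (-0.47 ± 0.16, adjusted P = 0.0574). With the replicate block the male call was lost (-0.83, adjusted P = 0.06) and the female one was made (-0.47, adjusted P = 0.0163), as it was by DESeq2 (-0.45, adjusted P = 0.0418). No difference between vehicle-treated male and female controls passed (-0.01 ± 0.13, adjusted P = 0.972).

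Fabp5 was called in 1 of the 9 comparisons between groups. It was higher in male Alport mice on vehicle, at 7.87, 5.17, 6.91 and 4.29 CPM, than in male controls, at 4.08, 2.53, 3.64 and 3.95 CPM. The lowest Alport mouse was just above the highest control, and the log2 fold change was 0.86 ± 0.23 (adjusted P = 0.00737), which did not pass in the fit of all 32 mice (adjusted P = 0.0869). In females, controls at 6.10, 3.27, 5.73 and 7.15 CPM and Alport mice at 6.54, 6.15, 7.01 and 6.32 CPM overlapped (0.27 ± 0.21, adjusted P = 0.319). The difference of this effect between the sexes was 0.62 ± 0.32 and did not pass (adjusted P = 0.465). Male controls on vehicle had a lower level than females without passing the test (-0.67 ± 0.24, adjusted P = 0.0523), but passed with DESeq2 (-0.66, adjusted P = 0.0263) and with the replicate block (-0.65, adjusted P = 0.0173).

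With NR, Fabp5 scattered widely, at 1.66, 7.34, 3.16 and 6.10 CPM in male controls, 7.30, 6.43, 3.56 and 5.79 CPM in male Alport mice and 8.73, 7.62, 4.47 and 1.64 CPM in female Alport mice. Only the NR-treated female controls lay close together, at 5.92, 5.50, 5.80 and 5.68 CPM. All 4 ranges overlapped with those on vehicle, and the log2 fold changes of -0.21 to 0.37 did not pass the test. The 95% intervals were -0.40 to 0.48 in female and -0.49 to 1.23 in male controls, and -1.09 to 0.66 in female and -0.70 to 0.52 in male Alport mice.

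**Figure D4:**
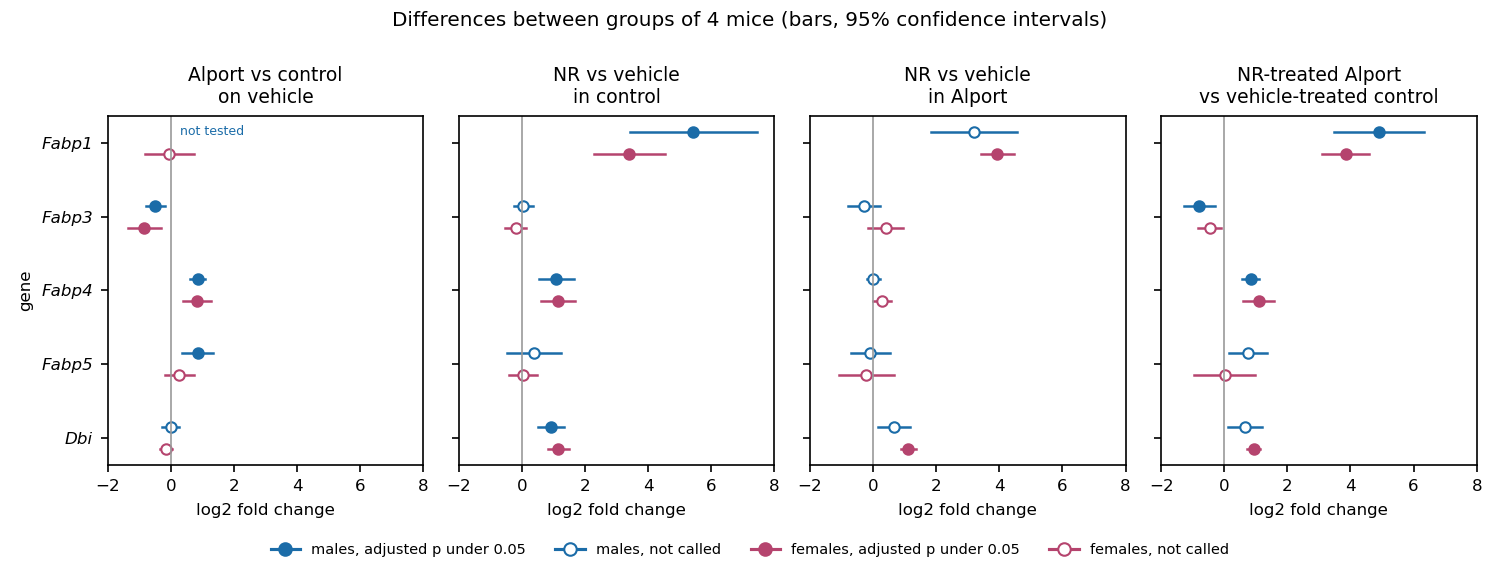
Log2 fold change (x axis) of each of the 5 genes (y axis) in the 4 comparisons run in both sexes, with bars for 95% confidence intervals, filled points where the adjusted P was under 0.05, males in blue and females in magenta. Fabp1 reached 5.43 in NR-treated male controls, Fabp4 was called in both sexes in all comparisons but NR in Alport mice, and Fabp3 was to the left of 0 wherever it was called.

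Counted together, 3 of the 4 members tested in males and 2 of 5 in females passed for Alport against control on vehicle, where 51.0% and 45.8% of all genes tested passed, so these shares are near the background. For NR in controls, 3 of 5 members passed in each sex, all upward, against 4.53% of genes in males and 6.18% in females. The male count includes Fabp1, which passed the filter only through the NR-treated group, and was 0 to 3 with 1 mouse left out and 1 with limma-voom. These background counts moved as well: the 666 genes of males became 74 to 1886 with 1 mouse left out (74 without vehicle replicate 1, 1886 without NR replicate 4), and the 924 of females became 395 to 809, or 18 in the fit of 32 mice. For NR in Alport mice, 0 of 5 passed in males, where 0% of 15500 genes passed with edgeR, 785 had an unadjusted P under 0.05, and DESeq2 called 62 genes. With 1 mouse left out, edgeR called 380 genes without NR replicate 1, the library that stood apart, and 0 or 1 in each of the other fits. In females 2 of 5 passed, Fabp1 and Dbi, against 0.477% of genes, and the 75 genes behind that share became 9 to 166 with 1 mouse left out (9 without vehicle replicate 4, 166 without NR replicate 1) and 728 with DESeq2. NR-treated Alport mice against vehicle-treated controls gave 3 of 5 in each sex, against 21.2% in males and 23.5% in females. These comparisons share groups of mice and are not independent of each other. Fabp1 was above vehicle-treated controls in NR-treated Alport mice by 4.90 ± 0.63 for males (adjusted P = 0.00317, the filter passed only through the NR-treated mice, and 4.24 without NR replicate 3) and 3.85 ± 0.34 for females (adjusted P = 0.000233), and Fabp4 by 0.84 ± 0.12 (adjusted P = 0.00367) and 1.09 ± 0.22 (adjusted P = 0.00638). Dbi was above by 0.65 ± 0.24 in males, which did not pass (adjusted P = 0.0824), and by 0.93 ± 0.10 in females (adjusted P = 0.000379). Between male and female controls 2 of 5 passed, Fabp1 and Dbi, against 31.7% of genes. No member passed an interaction. Of all genes, 0% passed for NR by genotype in males, 0% in females and 0% for sex by NR in Alport mice, 0.532% for sex by genotype and 0.683% for sex by NR in controls. Unadjusted P-values were under 0.05 for 1398, 1521 and 363 genes in the interactions where edgeR called none, and DESeq2 called 20, 30 and 1 there. For NR by genotype in males, edgeR called 782 genes without male Alport NR replicate 1 and 0 in every other fit with 1 mouse left out. In females it called 45 without female Alport NR replicate 1 and 0 to 3 in the other fits.

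The rest of the pathway was read from lists. Of 15 PPARA target genes other than Fabp1, 10 rose with NR in male controls (median log2 fold change 1.19, against 0.00 over all genes tested) and 10 in female controls (median 0.81, against -0.01), where 6 rose without NR replicate 3 (median 0.77), the library with fat genes. Of all genes tested, 4.53% in male and 6.18% in female controls were called. The list was not refitted in males, where 74 to 1886 of all genes were called with 1 mouse left out, against 666. Cyp4a14, a fatty acid hydroxylase, rose by 5.89 ± 0.66 in males and 1.72 ± 0.22 in females, and Cyp4a10, its relative, by 2.45 ± 0.40 and 1.32 ± 0.21. In male controls Ehhadh, the bifunctional enzyme of peroxisomal oxidation, rose by 1.19 ± 0.12, and in female controls Plin2, which coats lipid droplets, by 0.49 ± 0.07. In female Alport mice 6 of 15 rose with NR (median 1.54), among them Acot1, an acyl-CoA thioesterase, by 1.93 ± 0.24 and Cyp4a10 by 2.05 ± 0.25. Of all genes tested there, 0.477% were called. In male Alport mice 0 of 15 passed (median 1.16), with Cyp4a14 at 5.19 ± 0.66 (adjusted P = 0.252). Without NR replicate 1, 6 of 15 passed (median 1.31). The refits of the list without 1 mouse, here and in female controls, were added after the values were seen. The list was not refitted without the other mice. On vehicle, 7 of 15 were lower and 1 higher in male Alport mice (median -0.48), a share near the 51.0% of all genes called there, and 11 lower and 1 higher in females (median -0.66, with 45.8% of all genes called), with Cpt1a, the entry step of mitochondrial oxidation, at -0.76 ± 0.10 and -0.66 ± 0.10.

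Of 10 genes for PPAR receptors, coactivators and lipases, 5 of 9 tested fell and 1 rose in male Alport mice on vehicle, and 6 of 10 fell and 1 rose in females, in comparisons where 51.0% and 45.8% of all genes were called. Ppara itself fell by 0.94 on the log2 scale in males (adjusted P = 5.32e-05), and in females it fell by 1.14 (adjusted P = 8.69e-05). With NR, Ppara fell in female controls by 0.45 (adjusted P = 0.0121), and Lipe, hormone-sensitive lipase, rose in male controls by 0.83 ± 0.18 (adjusted P = 0.0352). No gene of this list passed for NR in Alport mice of either sex.

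A list of 10 other genes, grouped as acyl-CoA and sterol binding proteins, was set beside Dbi. Not all of them encode carriers. In Alport mice on vehicle, with the same background of 51.0% and 45.8%, 6 of 8 tested fell in each sex and none rose, with medians of -0.59 in males and -0.49 in females. Acbd5, an acyl-CoA binding protein of peroxisomes, fell by 0.65 in males, and in females it fell by 0.47, and Scp2, sterol carrier protein 2, fell by 0.76 and 0.72. With NR, 1 rose in male controls, Hsdl2 (0.65 ± 0.11, adjusted P = 0.0139), and 3 rose in female controls, Stard10 (0.35 ± 0.07), Scp2 (0.27 ± 0.07) and Eci2 (0.28 ± 0.07). Without the female control library with fat genes, a refit added after the values were seen, 1 of 8 rose. None passed for NR in Alport mice. In vehicle-treated mice 5 of 8 were higher in male than in female controls, among them Acbd4 (0.50 ± 0.07).

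Of the 12 other members of the FABP and lipid-binding protein family, 11 were in the table and 2 had enough counts to be tested. Fabp7, the brain-type protein, did not pass for Alport against control mice on vehicle in either sex (-0.24 ± 0.24 and -0.43 ± 0.19). The other tested gene, not named here, was called higher in Alport mice of both sexes, where 51.0% and 45.8% of all genes were called. Fabp6, the ileal bile acid carrier, had no count in 7 of the 8 groups. Of 10 genes of fatty acid uptake, 6 of 8 tested fell and 1 rose in male Alport mice, and 5 of 9 fell and 1 rose in females, against the same background, with Slc27a2, a very-long-chain acyl-CoA synthetase and transporter, at -1.17 ± 0.14 in males and Got2 at -0.60 ± 0.09 in females. With NR, Lpl, lipoprotein lipase, fell in male controls by 0.83 (adjusted P = 0.0405) and Cd36, a fatty acid translocase, rose in female controls by 0.63 ± 0.12 (adjusted P = 0.0135).

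For each member, the genes nearest in pattern over the 8 group means were sought among 16469 genes, by the root mean square difference of centered log2 CPM. Nearest to Fabp1, whose own pattern had a SD of 2.21, were Gsta1 (0.757), a glutathione transferase, Cbr3 (0.786), a carbonyl reductase, Cyp4a14 (0.956) and Gm10639 (1.03). Nearest to Dbi (SD 0.506) were Gstp1 (0.0948), another glutathione transferase, Lpcat3 (0.179), which remodels phospholipids, Gm5805 (0.185) and Slc25a22 (0.192), a mitochondrial glutamate carrier. Fabp4 (SD 0.433) was nearest to Rpsa-ps9 (0.103), Comtd1 (0.177), Sprn (0.185) and Rps16-ps2 (0.198). Fabp3 (SD 0.369) was nearest to Neil2 (0.0900), Bckdhb (0.0981), Glod5 (0.1) and Cacnb4 (0.107), and Fabp5 (SD 0.283) to Lamc3 (0.0765), Tnfsfm13 (0.0968), Ccdc88c (0.102) and Eif4e3 (0.103). Members with a flat pattern have close neighbors for that reason alone, and these values describe 8 means.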

How the data were processed

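Kidney cortex RNA of 32 mice was sequenced after poly-A selection. The authors deposited raw counts per gene symbol, processed with BioJupies, and labelled the build mm10. The aligner, its version, the annotation and the use of strand are not given in the sources used here. The deposited log10 values were the log10 of CPM + 1 of the same counts and served only as a check. Samples were grouped by their labels. Each comparison was fitted with edgeR 4.0.16 in R 4.3.3 on its 8 mice (16 for an interaction), with TMM scaling, filterByExpr at a minimum count of 10, the quasi-likelihood F test and Benjamini-Hochberg adjustment over all genes tested, with a threshold of 0.05. The scripts were first tested on simulated data. Alternatives were DESeq2 1.42.0, limma-voom (limma 3.58.1), 1 fit of all 32 mice, RLE size factors, no filter, a replicate block and leaving out each mouse. Lists were described by counts and medians, and up to 4 genes of a list were named per comparison, those with the smallest P-values. Some items are not reported here. Col4a4 and Fabp6 were named after their values were seen. The members and lists were chosen with earlier results of these data known. Total counts were 16621944 to 27778797 per mouse, which limits the precision of genes with few counts. None of the 48 pairs of libraries within a group agreed within sampling noise, and pairs across groups were not checked. The labels do not name the animals, so P-values measure the spread between these samples.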

Additional observations from a re-analysis of the deposited data

Results flagged for a closer look

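In 4 of 40 groups of 4 mice examined (5 genes in 8 groups), 1 mouse lay far from the other 3, with a gap to its nearest neighbor that took up most of the range of the group, past Dixon's 95% critical value. Chance gives such a mouse in about 1 of 20 groups. Fabp4 was at 19.3 CPM in female Alport vehicle replicate 2 (gap 0.846 of the range), below the other 3 mice, and at 24.0 CPM in male Alport vehicle replicate 4 (0.891), also below. Fabp4 was at 45.7 CPM in female control NR replicate 3 (0.907), above the other 3 mice, and this library also had the highest Ucp1 and Plin1 of all. Dbi was at 305 CPM in male control NR replicate 4 (0.971), below the other 3 mice, and in this mouse Fabp1 and Fabp4 were the lowest of the group as well.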

How the results depend on the processing

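Log2 fold changes near 0 turned in sign. For Dbi in Alport against control males this gave -0.0054 with DESeq2, -0.0054 with RLE size factors, -0.0087 without the filter and -0.086 in the fit of 32 mice. For Fabp1 in Alport against control females it gave 0.047 with limma-voom and 0.057 with the replicate block, for Fabp5 in NR-treated Alport against vehicle-treated control females -0.21 and -0.12, and for Fabp4 in sex by genotype -0.0055 with limma-voom and -0.033 in the fit of 32 mice. For Fabp3 in male against female controls it gave 0.0028 with DESeq2, 0.018 in the fit of 32 mice, 0.0025 with RLE size factors and 0.00064 with the replicate block. The cause was not tested. With 1 mouse left out, the ranges that crossed 0 were -0.10 to 0.088 for Dbi and -0.29 to 0.35 for Fabp1 in these comparisons, -0.10 to 0.12 for Fabp3 by sex and -0.064 to 0.13 for Fabp3 with NR in male controls. For Fabp4 they were -0.042 to 0.041 with NR in Alport males, -0.10 to 0.20 in sex by genotype and -0.35 to 0.22 in sex by NR in controls. For Fabp5 they were -0.22 to 0.089 and -0.50 to 0.10 with NR in Alport males and females, -0.15 to 0.19 with NR in control females, -0.26 to 0.35 in NR-treated Alport against vehicle-treated control females, -0.57 to 0.058 in NR by genotype in females and -0.18 to 0.44 in sex by NR in Alport mice, and for Dbi in NR by genotype in females -0.17 to 0.14.

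For NR in Alport males the number of members called was 1 with DESeq2, 1 in the fit of 32 mice and 0 to 2 with 1 mouse left out, against 0. For NR in control males it was 1 with limma-voom and 0 to 3 with 1 mouse left out, against 3. It was 5 with DESeq2 for NR-treated Alport against vehicle-treated control males, against 3, and for sex 1 in the fit of 32 mice and 1 to 2 with 1 mouse left out, against 2. Mice with the same replicate number did not deviate together, with correlations of -0.167 to 0.262 over 36 pairs, of which 5 were over 0.1, so the numbers were not taken to pair the mice. With the replicate block Fabp4 with NR in control males was 1.02 (adjusted P = 0.0770). The block changed 4 calls (2 lost, 2 made) of the members and DESeq2 made 5, among them Fabp5 (0.74, adjusted P = 0.0376) and Dbi (0.63, adjusted P = 0.0399) in NR-treated Alport against vehicle-treated control males. At 21 counts in all, the level of Fabp1 in vehicle-treated male controls was near the limit of the depth.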
